A study of Homo sapiens with 6 samples.

Results

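The genes CDX1, CDX2, HNF4A, HNF4G, GATA4, GATA6, FOXA1 and FOXA2 encode transcription factors of gut and liver lineage, and all 8 are listed among the 16781 genes of the deposited expression table. They were found there by symbol alone. Their mRNA was compared between 3 RNA-seq libraries of Caco-2 cells with a CRISPR/Cas9 knockout of CBS (CBS KO) and 3 libraries of unmodified Caco-2 cells (WT). CBS encodes cystathionine beta-synthase, an enzyme that joins homocysteine to serine, and Caco-2 is an established human cell line of colon adenocarcinoma origin that acquires features of absorptive enterocytes at confluence. The CBS KO cells had been infected with a lentivirus carrying Cas9, a guide against CBS and a puromycin resistance gene, and the resistant cells were collected after repeated puromycin selection, with no clone named. Vector-only cells were not analysed here, and loss of CBS, lentiviral infection and drug selection cannot be told apart. Separate cultures behind the libraries are not stated, and the p-values measure the spread between these libraries, which may be technical.

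CDX1 and CDX2 are homeodomain proteins that establish and keep intestinal identity in the epithelium, with CDX2 as the broader determinant. HNF4A and HNF4G are nuclear receptors that bind shared sites in enterocytes and sustain brush-border, lipid transport and, in liver, hepatocyte genes. GATA4 and GATA6 are zinc-finger proteins, of which GATA4 marks the proximal small intestine and GATA6 the whole gut, whereas FOXA1 and FOXA2 are forkhead proteins that open chromatin in endoderm and its derivatives. These factors bind near one another's genes in several endodermal tissues, and the bases just before their starts are therefore shown first.

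RefSeq promoter windows of the build GRCh38.p14, which run 250 bases before to 50 bases after a start, were matched for 4 of the 8 genes, with 2 starts for HNF4A. The 250 bases before each start are printed 5' to 3' on the gene's own strand. They lie at chr13:27969316-27969565 (minus strand) for CDX2 and at chr20:44355449-44355698 (plus) and chr20:44400989-44401238 (plus) for the first and the second start of HNF4A. The window of GATA6 lies at chr18:22169339-22169588 (plus) and that of FOXA1 at chr14:37595250-37595499 (minus). Capitals mark exact matches on either strand to a core motif. For GATA factors the letters searched were GATAA. For FOXA factors they were TGTTTAC and, as a second form, TATTTAC. For CDX factors they were TTTATG and, as a second form, TTTATT. For HNF4 factors they were CAAAGTCCA.
CDX2: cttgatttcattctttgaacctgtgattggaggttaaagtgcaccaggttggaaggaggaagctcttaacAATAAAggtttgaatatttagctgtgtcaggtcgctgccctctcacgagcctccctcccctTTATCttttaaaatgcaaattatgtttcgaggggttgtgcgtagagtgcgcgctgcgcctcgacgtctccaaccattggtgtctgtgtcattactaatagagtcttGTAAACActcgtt
HNF4A, the first start: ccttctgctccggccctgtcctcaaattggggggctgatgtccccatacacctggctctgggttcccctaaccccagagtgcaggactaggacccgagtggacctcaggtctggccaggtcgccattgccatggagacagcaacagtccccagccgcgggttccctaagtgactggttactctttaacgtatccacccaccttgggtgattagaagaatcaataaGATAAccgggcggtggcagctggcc
HNF4A, the second start: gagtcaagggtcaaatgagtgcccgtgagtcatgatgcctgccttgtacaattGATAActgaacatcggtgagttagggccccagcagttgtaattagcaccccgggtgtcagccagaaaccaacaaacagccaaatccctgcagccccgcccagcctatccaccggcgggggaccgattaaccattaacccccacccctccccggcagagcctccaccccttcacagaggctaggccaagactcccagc
GATA6: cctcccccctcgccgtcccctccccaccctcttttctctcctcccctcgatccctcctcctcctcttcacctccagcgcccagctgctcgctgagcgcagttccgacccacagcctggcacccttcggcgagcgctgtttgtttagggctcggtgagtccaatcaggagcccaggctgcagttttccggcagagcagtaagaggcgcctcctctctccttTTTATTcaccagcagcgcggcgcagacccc
FOXA1: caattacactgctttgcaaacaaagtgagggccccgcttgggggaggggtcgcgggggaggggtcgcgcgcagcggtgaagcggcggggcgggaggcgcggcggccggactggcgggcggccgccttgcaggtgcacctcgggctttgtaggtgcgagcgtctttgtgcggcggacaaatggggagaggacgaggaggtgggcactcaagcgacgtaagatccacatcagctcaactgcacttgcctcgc

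The CDX2 window held 3 matches: a CDX motif at positions -180 to -175 from the start, a GATA motif at -119 to -115 and a FOXA motif at -13 to -7, all on the strand opposite to the gene. The windows of HNF4A held a GATA motif each, at -25 to -21 for the first start and at -197 to -193 for the second, and that of GATA6 a CDX motif at -30 to -25. The FOXA1 window held none of the motifs, and none of the 5 windows held the HNF4 motif. Among the 35116 promoter windows of the same length, 22.7% held GATAA, 5.97% held either FOXA form, 24.3% held either CDX form and 0.384% held the HNF4 motif. No motif overlapped another, and a match describes letters, not binding.

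The table gave 13482766, 12805168 and 14307279 estimated counts for the CBS KO libraries and 16176756, 16097688 and 16171553 for the WT libraries. At these depths 3 counts stood for 0.244 to 0.264 CPM, counts scaled to library size, in CBS KO and 0.164 to 0.165 CPM in WT. Chi-squared per degree of freedom, which sets the difference of 2 libraries against sampling noise, was 3.94 to 12.9 within CBS KO. Within WT it was 1.95 to 3.42. The largest value was that of CBS KO 1 and CBS KO 3, so the CBS KO libraries were less alike. CPM were scaled with TMM factors, which take most genes as not changed. The test was edgeR's quasi-likelihood test with Benjamini-Hochberg adjustment at 0.05. CBS itself gave 24.6, 18.5 and 25.4 CPM in CBS KO and 48.8, 53.0 and 50.6 CPM in WT, a log2 fold change of -1.15 (SE 0.10, adjusted p = 1.18e-08 by edgeR). Of 13028 genes tested, 4998 were higher and 5062 lower in CBS KO. With TMM 49.7% of the called genes were higher, against 28.6% with library totals alone, 28.8% with log2(FPKM + 1) and 18.9% with log2(TPM + 1). Over all genes these 3 scalings gave a median of -0.36, -0.28 and -0.50 on the log2 scale, against -0.01 with TMM. Changes are therefore read relative to that median. Genes of gut epithelium were uneven in level. The microvillus protein VIL1 was at a mean of 766 CPM in CBS KO and 959 CPM in WT, and the cadherin CDH17 at 983 CPM in CBS KO and 614 CPM in WT. Others were near the floor, such as FABP2 with 0.332 CPM in CBS KO and 0.438 CPM in WT. MUC2 was likewise scarce, with 0.337 CPM in CBS KO and 0.164 CPM in WT.

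Of the 8 factors, 7 passed the filter on low counts, and 5 of these 7 were lower in CBS KO cells while none was higher. Among all genes tested, 77.2% were called, 38.9% as lower and 38.4% as higher. CDX2, HNF4A, GATA6 and FOXA1 were lower by 1.64-fold to 3.83-fold. The fifth, GATA4, passed the filter through the WT libraries alone and had 11 reads in all CBS KO libraries together, so its call had to come out lower and adds no support. With a minimum mean of 5 CPM it was not tested, and 4 factors were called lower. HNF4G and FOXA2 were not called, and CDX1 was not tested. With library totals, log2(FPKM + 1) or log2(TPM + 1) all 7 were called lower, and in each the values of HNF4G and FOXA2 lay close to the shifted median of all genes. In bulk RNA, fewer cells of a type and less RNA per cell cannot be told apart.

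**Figure D1:**
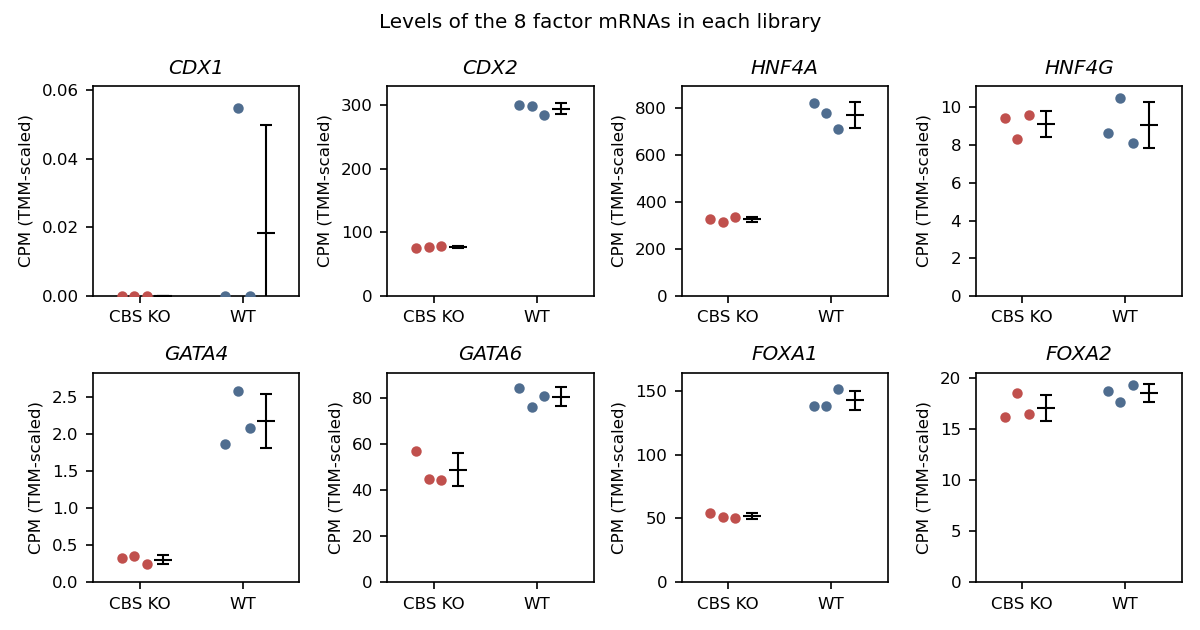
TMM-scaled CPM of each of the 8 factor genes in the 3 CBS KO (left) and 3 WT (right) libraries, with a point per library and the mean ± SD as a bar, each panel on its own linear axis that starts at 0. The groups do not overlap for CDX2, HNF4A, GATA4, GATA6 and FOXA1, overlap for HNF4G and FOXA2, and CDX1 has a single read in a WT library.

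CDX2 (Entrez 1045, chr13:27960918-27969315) had 75.2, 77.1 and 78.1 CPM in the CBS KO libraries and 299.7, 298.8 and 284.4 CPM in the WT libraries. The 6 values formed 2 tight groups that did not overlap, with 76.8 ± 1.46 CPM in CBS KO and 294 ± 8.58 CPM in WT (SD, n = 3 each). CDX2 was 3.83-fold lower in CBS KO, or -1.94 on the log2 scale (SE 0.06, adjusted p = 2.87e-14 by edgeR), and 1.93% of the tested genes had a fold change this low or lower. The counts behind it were 877 to 960 in CBS KO and 5207 to 5457 in WT. Its closest paralogue CDX1 (Entrez 1044, chr5:150166778-150184558) had 0, 0 and 0 reads in CBS KO and 0, 1 and 0 reads in WT. CDX1 was thus under the floor of 3 counts in every library, so no fold is given, and of the pair CDX2 alone was detectable at this depth.

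HNF4A (Entrez 3172, chr20:44355699-44434596) had 329, 315 and 335 CPM in CBS KO and 824, 779 and 713 CPM in WT. Every CBS KO library lay well below every WT library, with 326 ± 10.5 CPM in CBS KO and 772 ± 55.6 CPM in WT (SD, n = 3 each). HNF4A was 2.37-fold lower in CBS KO, or -1.24 on the log2 scale (SE 0.07, adjusted p = 4.48e-11 by edgeR). HNF4G (Entrez 3174, chr8:75407649-75566834), its paralogue of the gut epithelium, had 9.43, 8.35 and 9.59 CPM in CBS KO and 8.62, 10.5 and 8.14 CPM in WT. These values overlapped, and the difference was 0.01 on the log2 scale (SE 0.12, adjusted p = 0.95 by edgeR) from 95 to 118 counts in CBS KO and 149 to 191 counts in WT. The sign of the HNF4G value followed the scaling. It was -0.35 for library totals (adjusted p = 0.0186 by edgeR), where the median of all genes was -0.36. It was -0.45 for log2(TPM + 1) (adjusted p = 0.00366 by limma), where that median was -0.50. The RefSeq annotation places the noncoding RNA HNF4A-AS1 over HNF4A. Whether counting used the strand is not given in the sources used here, so reads of that RNA could be counted with HNF4A.

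GATA6 (Entrez 2627, chr18:22169589-22202528), the more abundant of the GATA pair by TPM, had 57.2, 45.0 and 44.6 CPM in CBS KO and 84.4, 76.3 and 81.0 CPM in WT. The first CBS KO library stood above the other two, and all 3 were below the WT range. The means were 48.9 ± 7.19 CPM in CBS KO and 80.5 ± 4.08 CPM in WT (SD, n = 3 each), a log2 fold change of -0.72 (SE 0.09, adjusted p = 1.35e-06 by edgeR). GATA4 (Entrez 2626, chr8:11676935-11760002) was scarce, with 4, 4 and 3 reads in CBS KO and 34, 47 and 38 reads in WT. This corresponded to 0.328, 0.352 and 0.244 CPM in CBS KO, near the floor of 3 counts, and 1.87, 2.58 and 2.08 CPM in WT. The groups did not overlap, and the fit gave -2.79 on the log2 scale (SE 0.34, adjusted p = 1.03e-06 by edgeR). The size of this value is uncertain, since it rests on the 11 reads of CBS KO, against 119 in WT.

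FOXA1 (Entrez 3169, chr14:37589552-37595249) had 54.4, 50.8 and 50.2 CPM in CBS KO and 138, 138 and 151 CPM in WT. The groups were far apart, with 51.8 ± 2.23 CPM in CBS KO and 142 ± 7.64 CPM in WT (SD, n = 3 each), and FOXA1 differed by -1.46 on the log2 scale (SE 0.07, adjusted p = 5.92e-12 by edgeR). FOXA2 (Entrez 3170, chr20:22580998-22585490) had 16.2, 18.5 and 16.5 CPM in CBS KO and 18.7, 17.7 and 19.3 CPM in WT. The second CBS KO library lay within the WT range, and the log2 fold change of -0.12 (SE 0.09, adjusted p = 0.22 by edgeR) was within the spread. With library totals FOXA2 was called lower at -0.48 (adjusted p = 0.000182 by edgeR), beside a median of -0.36 for all genes. Relative to that median it was -0.11 with both scalings.

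**Figure D2:**
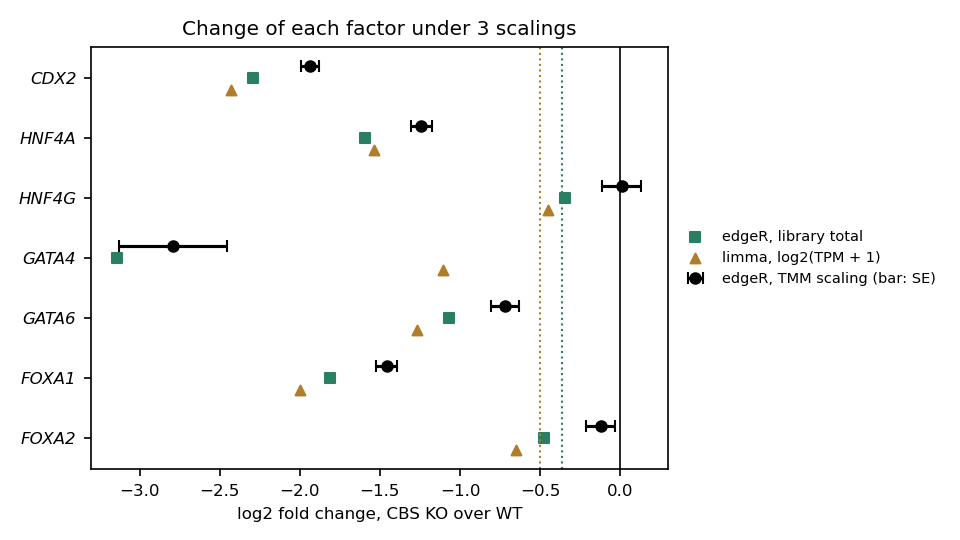
Log2 fold change, CBS KO over WT, of the 7 tested factors with TMM scaling in edgeR (circles, bar: SE), library totals in edgeR (squares) and log2(TPM + 1) in limma (triangles). The dotted lines give the median of all genes for library totals (-0.36) and log2(TPM + 1) (-0.50), on or near which HNF4G and FOXA2 lie, whereas CDX2, HNF4A, GATA4, GATA6 and FOXA1 lie below their median in each scaling.

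The order of the mRNA levels was read from deposited TPM, which are divided by transcript length. In CBS KO cells HNF4A led with 119 ± 6.22 TPM, followed by CDX2 with 37.6 ± 1.67, FOXA1 with 19.8 ± 2.12 and GATA6 with 18.3 ± 3.79 TPM. Then came FOXA2 with 9.44 ± 0.909, HNF4G with 3.23 ± 0.163 and GATA4 with 0.15 ± 0.0265 TPM (SD, n = 3). In WT cells the order was the same, with 347 ± 23.8 TPM for HNF4A, 207 ± 11.9 for CDX2, 81.7 ± 4.47 for FOXA1 and 44.8 ± 2.28 for GATA6. The lower ones were 15.4 ± 0.712 for FOXA2, 4.83 ± 0.866 for HNF4G and 1.49 ± 0.24 TPM for GATA4 (SD, n = 3). CDX1 was last in both. Neighbours in this order were apart in every library of a group except FOXA1 and GATA6 in CBS KO, whose libraries overlapped (17.81 to 22.02 TPM for FOXA1 and 15.4 to 22.6 TPM for GATA6).

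Summed over the 8 genes, TPM came to 222, 206 and 193 in CBS KO and 731, 706 and 669 in WT. HNF4A made up 56.4 to 58.2% of that sum in CBS KO and 48.2 to 50.5% in WT, and CDX2 made up 17.6 to 18.5% in CBS KO and 28.9 to 30.2% in WT. The share of FOXA2 was 4.30 to 4.98% in CBS KO and 2.07 to 2.40% in WT. The composition of the set thus differed as well as its total. The groups did not overlap in these 3 shares, nor in those of HNF4G, GATA4, GATA6 and FOXA1. Shares of a sum depend on one another, and one can be higher without more of its own mRNA. FOXA2 itself was not called.

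A ratio of paralogues within a library does not depend on the scaling between libraries. The 4 pairs were compared with the exact permutation test over libraries, whose smallest 2-sided p for 3 against 3 is 0.1. The log2 ratio of HNF4G to HNF4A counts was -5.12, -5.23 and -5.12 in CBS KO and -6.57, -6.21 and -6.45 in WT. This count ratio was thus 2.39-fold higher in CBS KO, a difference of 1.26 on the log2 scale (exact p = 0.1, adjusted over the 4 pairs 0.1), with every CBS KO library above every WT library. Counts are not divided by transcript length. The length implied for HNF4A, given below, was 3.39 kb in CBS KO and 4.12 kb in WT, so the size of this fold depends on the unit. As a share of the TPM of the pair, HNF4G was 2.65 ± 0.0842% in CBS KO and 1.37 ± 0.244% in WT (SD, n = 3 each).

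The log2 ratio of FOXA2 to FOXA1 counts was -1.74, -1.45 and -1.60 in CBS KO and -2.88, -2.96 and -2.97 in WT, a difference of 1.34 (exact p = 0.1, adjusted 0.1), again without overlap. FOXA2 was 32.3 ± 2.16% of the TPM of that pair in CBS KO and 15.9 ± 0.451% in WT (SD, n = 3 each). For the GATA pair the log2 ratios of GATA4 to GATA6 were -7.28, -6.83 and -7.29 in CBS KO and -5.48, -4.87 and -5.27 in WT. The CBS KO values rest on 4, 4 and 3 reads of GATA4, and no size or direction is drawn from them. The ratio of CDX2 to CDX1 is not given because it turns on the 1 read of CDX1.

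**Figure D3:**
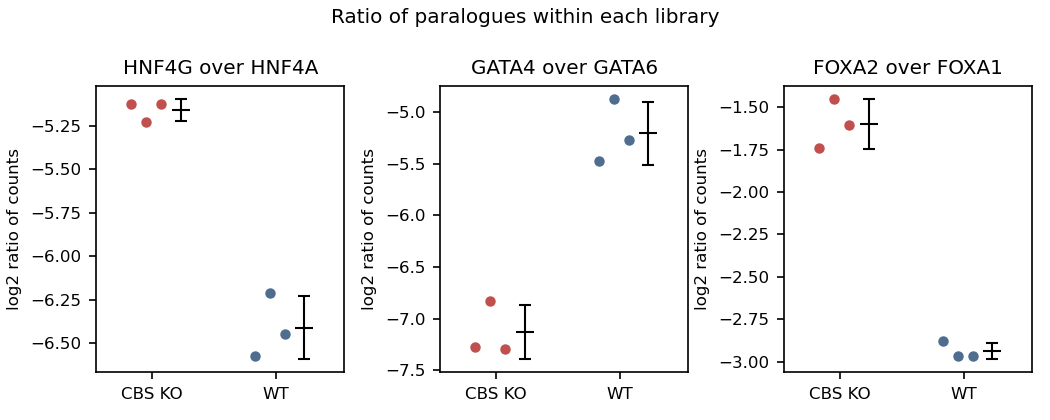
Log2 ratio of estimated counts of HNF4G to HNF4A, GATA4 to GATA6 and FOXA2 to FOXA1 in the 3 CBS KO (left) and 3 WT (right) libraries, with a point per library and the mean ± SD as a bar, on axes that do not start at 0. CBS KO lies above WT for the HNF4 and FOXA pairs with no overlap, and the GATA pair in CBS KO rests on 3 or 4 reads of GATA4 in a library.

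The effective transcript length that links an estimated count to its FPKM differed between groups for HNF4A, as seen after its values were examined. HNF4A is transcribed from alternative promoters into isoforms of unlike length. Dividing counts by FPKM and by the library total gave 3.44, 3.29 and 3.44 kb in CBS KO and 4.12, 4.12 and 4.10 kb in WT. The groups did not overlap, the ratio was 0.824 (log2 -0.28), and 3.08% of 10953 genes with at least 1 FPKM in every library differed by as much or more. For CDX2 the same quotient was 2.52 kb in each CBS KO library and 2.58, 2.59 and 2.73 kb in WT, a difference that 18.2% of genes reached, and for HNF4G, GATA6, FOXA1 and FOXA2 the groups overlapped.

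The quotient for HNF4A also separates its values by unit, since its log2 fold change was -1.60 with library totals of counts and -1.31 with log2(FPKM + 1). GENCODE release 29 lists 9 HNF4A transcripts, 8 of them protein coding with 540 to 6445 bases, of which 5 start before and 3 at or after the second RefSeq start whose promoter is printed above. A gene-level table does not give the level of each transcript, and the cause of this difference was not tested.

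Other endoderm factors outside the 8 genes moved in both directions, with 5 of 14 tested higher and 8 lower and a median log2 fold change of -0.40, against -0.01 for all genes. With library totals 2 were higher and 9 lower (median -0.75), and with log2(TPM + 1) 1 was higher and 10 lower (median -0.78). Without CBS KO replicate 1, or without WT replicate 3, 3 were higher. GATA5, among those lower, had 2, 6 and 3 reads in CBS KO and passed the filter through WT alone, so its call adds no support. CEBPA, a bZIP factor of hepatocyte and adipocyte differentiation, had 55.5, 59.7 and 62.9 CPM in CBS KO and 329, 323 and 314 CPM in WT, a log2 fold change of -2.44 (SE 0.06, adjusted p = 5.15e-15 by edgeR). Its relative CEBPB rose, with means of 202 CPM in CBS KO and 73.1 CPM in WT (log2 1.47). FOXA3, the third forkhead gene of the FOXA family, fell to 5.38 CPM in CBS KO, against 10.4 CPM in WT. ONECUT2, a cut-domain factor of liver and pancreas, rose to 8.68 CPM in CBS KO, against 4.07 CPM in WT, a call that was lost with log2(TPM + 1).

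Of 13 enterocyte factors tested, 6 were higher and 5 lower, with a median of 0.13 that was -0.22 with library totals, -0.18 with log2(FPKM + 1) and -0.40 with log2(TPM + 1). The epithelial ETS factor ELF3 rose to a mean of 483 CPM in CBS KO, against 147 CPM in WT (log2 1.71). CREB3L3, a membrane-bound bZIP factor of lipid metabolism in liver and intestine, rose to 45.6 CPM in CBS KO, against 14.9 CPM in WT. The vitamin D receptor VDR fell to 7.51 CPM in CBS KO, against 24.2 CPM in WT. ISX, an intestine-specific homeobox gene that represses vitamin A uptake, fell to 6.18 CPM in CBS KO, against 18.3 CPM in WT, and PRDM1, a repressor active in the fetal intestine of mouse, fell to 7.88 CPM in CBS KO, against 17.8 CPM in WT.

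Genes described as targets of the factors moved in both directions. Of 15 tested genes listed for CDX factors, 8 were higher and 5 lower, with a median of 0.21 that turned to -0.15 with library totals, -0.14 with log2(FPKM + 1) and -0.36 with log2(TPM + 1). Among them SLC15A1, the dipeptide transporter of the brush border, rose to 86.6 CPM in CBS KO, against 34.4 CPM in WT (log2 1.33). HEPH, a ferroxidase of iron export, rose to 655 CPM in CBS KO, against 307 CPM in WT. CDH17 rose by 0.68 on the log2 scale, a call that was lost with log2(TPM + 1). FUT2, which makes the H antigen in secretions, fell to 2.12 CPM in CBS KO, against 14.9 CPM in WT (log2 -2.80).

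Of 20 tested genes listed for HNF4 factors, 9 were higher and 10 lower, with a median of -0.14. That median was -0.49 with library totals, -0.69 with log2(TPM + 1) and, of the opposite sign, 0.11 with a minimum mean of 5 CPM. PCK1, a gluconeogenic enzyme, had 97.1, 87.3 and 98.1 CPM in CBS KO and 9.61, 9.22 and 8.08 CPM in WT, a log2 fold change of 3.39 (SE 0.09, adjusted p = 5.05e-15 by edgeR). The lipoprotein genes were split in direction. MTTP, which loads lipid onto apolipoprotein B, rose to 61.8 CPM in CBS KO, against 11.1 CPM in WT, and APOA4 rose to 294 CPM in CBS KO, against 58.1 CPM in WT. By contrast APOB, the structural protein of chylomicrons and VLDL, fell to 123 CPM in CBS KO, against 494 CPM in WT. APOH, a plasma phospholipid-binding protein, fell to 10.3 CPM in CBS KO, against 45.1 CPM in WT.

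Of 10 tested genes listed for GATA factors, 4 were higher and 5 lower, with a median of -0.29. With library totals 1 was higher and 5 lower (median -0.65), with log2(TPM + 1) none was higher and 8 were lower (median -0.51), and a minimum mean of 5 CPM left 7 genes with a median of 0.21. SLC10A2, among those lower with TMM, had 3, 2 and 4 reads in CBS KO and 34, 32 and 23 reads in WT. It passed the filter through WT alone, so its call adds no support. LGR5, a receptor of intestinal stem cells, fell to 4.03 CPM in CBS KO, against 11.1 CPM in WT, and BMP4, a ligand of the TGF-beta family, fell to 20.2 CPM in CBS KO, against 35.0 CPM in WT. The peptidase DPP4 was called higher with TMM, with 637 CPM in CBS KO and 445 CPM in WT. The fatty acid binding protein FABP1 was likewise called higher, with 367 CPM in CBS KO and 278 CPM in WT. The sign of both turned with log2(TPM + 1), to -0.07 for DPP4 and -0.20 for FABP1. FABP1, at 0.40 with TMM, also lost its call with library totals (0.04), with log2(FPKM + 1) (0.04) and without a filter (0.36, adjusted p = 0.071 by edgeR), and was at 0.23 without CBS KO replicate 3.

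Of 10 tested genes listed for FOXA factors, 5 were higher and 4 lower, with a median of 0.14 that turned to -0.22 with library totals, -0.19 with log2(FPKM + 1) and -0.43 with log2(TPM + 1). The plasma protein genes in it were split. ALB, the serum albumin of liver, had 0.328, 0.439 and 0.488 CPM in CBS KO and 18.2, 20.9 and 19.0 CPM in WT. It was called lower, but it passed the filter through the WT libraries alone and had 4, 5 and 6 reads in CBS KO, near the floor of 3 counts, so no fold is given. Its fetal relative AFP fell to 1.97 CPM in CBS KO, against 26.0 CPM in WT (log2 -3.71), and TTR, the thyroxine carrier, fell to 72.9 CPM in CBS KO, against 184 CPM in WT. The lipoprotein gene APOA2 rose, with 515 CPM in CBS KO and 282 CPM in WT, though unevenly, with 409, 518 and 619 CPM in the CBS KO libraries. TF, the iron carrier, rose as well, with 21.0 CPM in CBS KO and 13.1 CPM in WT. TFF1, a mucosal trefoil peptide of the stomach, rose to 64.5 CPM in CBS KO, against 15.5 CPM in WT (log2 2.06).

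The target lists share genes, such as PCK1 and TTR, and were compiled from general knowledge of liver and intestine in human and mouse, without binding data from these cells. Their counts are a description, and the part of any factor in a target's level was not tested. The lists include genes with few reads that passed the filter through a single group, whose calls add no support.

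Genes of other gut states were set beside the factors. Of 11 genes listed for fetal or regenerating gut epithelium, 9 were in the table and 6 were tested. KRT7, IL33 and CCN2 were too low to be tested. All 6 tested genes were higher with TMM, where 38.4% of all genes tested were, and their median was 2.32. That median was 1.67 with log2(TPM + 1), where 5 were higher and 1 lower. With library totals 5 were higher and none lower. CCN1, a secreted matricellular protein, had 311, 303 and 320 CPM in CBS KO and 16.4, 17.4 and 15.4 CPM in WT (log2 4.25, SE 0.07, adjusted p = 2.59e-17 by edgeR). The calcium-binding protein ANXA1 rose to 24.5 CPM in CBS KO, against 2.81 CPM in WT, and S100A6 to 119 CPM in CBS KO, against 22.2 CPM in WT. The TWEAK receptor TNFRSF12A rose to 53.95 CPM in CBS KO, against 14.5 CPM in WT.

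Of 5 tested stomach genes, 3 were higher and 1 lower, with a median of 0.69 that was 0.08 with log2(TPM + 1). PSCA, among those higher, had 20, 31 and 28 reads in CBS KO and 8, 6 and 6 reads in WT. It passed the filter through CBS KO alone, so its call adds no support. The foregut factor SOX2 fell to 9.49 CPM in CBS KO, against 28.97 CPM in WT (log2 -1.61). Of the 10 stomach genes in the table, 5 were not tested because of low counts, the mucins MUC5AC and MUC6 among them. Of 12 tested genes with a regional pattern along the gut, 5 were higher and 2 lower, with a median of 0.29 that was -0.07 with library totals, where 4 were higher and 5 lower. SLC10A2, among those lower with TMM, passed the filter through WT alone, and its call adds no support. HOXB9, a posterior homeobox gene, rose to 142 CPM in CBS KO, against 25.5 CPM in WT. HOXB13, the most posterior gene of the same cluster, fell to 8.22 CPM in CBS KO, against 32.8 CPM in WT. SLC26A3, a chloride exchanger of colon and ileum, rose to 19.5 CPM in CBS KO, against 11.5 CPM in WT, a call lost with log2(TPM + 1).

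Within the wider families, 4 of 5 tested GATA genes were lower and 1 higher, with a median of -0.72. The fourth, GATA3, was called at -0.32 (adjusted p = 0.0482 by edgeR). The number lower was 3 with median-ratio factors, with DESeq2, with the replicate block and when any library other than CBS KO replicate 3 was left out. GATA5, like GATA4, passed the filter through WT alone, with 2, 6 and 3 reads in CBS KO and 32, 36 and 35 reads in WT, and its call adds no support. GATA2, known from blood and endothelium, was the GATA gene that rose, to 19.3 CPM in CBS KO, against 10.5 CPM in WT. Of 24 tested forkhead genes 8 were higher and 12 lower (median -0.19), and with log2(TPM + 1) 3 were higher and 15 lower (median -0.67). Of 34 nuclear receptors 14 were higher and 12 lower (median 0.10, which was -0.25 with library totals). Of 31 HOX genes 12 were higher and 10 lower (median 0.12, which was -0.24 with library totals), and of 9 SOX genes 3 were higher and 6 lower (median -0.52), with 1 higher with library totals and none with log2(TPM + 1). The KLF family had the opposite balance to the 8 factors with TMM, with 10 of 13 higher and 1 lower (median 0.68). With log2(TPM + 1) 6 were higher and 4 lower and the median was 0.00.

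Markers of other cell types were measured beside these results. Of 5 tested fibroblast markers, 2 were higher and 2 lower, and the 7 in the table summed to 185 to 201 CPM in CBS KO and 207 to 234 CPM in WT, most of it COL1A1 (181 CPM in CBS KO and 197 CPM in WT). The collagen COL1A2 of the same list was at 0 in CBS KO and 0.0183 CPM in WT. Without CBS KO replicate 1, or without WT replicate 3, 1 fibroblast marker was higher and 3 were lower. The 2 tested endothelial markers were called lower, 1 of them, VWF, at an adjusted p of 0.0435 by edgeR. Only 1 was called with DESeq2, or when a CBS KO replicate or WT replicate 1 was left out. The 4 in the table summed to 9.23 to 9.92 CPM in CBS KO and 25.5 to 29.2 CPM in WT, mostly PECAM1 with 7.35 CPM in CBS KO and 25.0 CPM in WT. Of 3 tested leukocyte markers 1 was higher and 1 lower. The 6 in the table summed to 91.5 to 108 CPM in CBS KO and 40.2 to 48.4 CPM in WT, mostly the lysosomal protein CD68 with 91.8 CPM in CBS KO and 32.9 CPM in WT. The pan-leukocyte marker PTPRC was at 0.0271 CPM in CBS KO and 0 in WT. Embryonic kidney is the origin of the 293T cells that made the virus. Of 2 tested markers of it none was higher and 1, PAX8, was lower, a call lost without CBS KO replicate 1 (-0.25, adjusted p = 0.151 by edgeR) or any WT replicate (-0.36 to -0.38), and with DESeq2 (adjusted p = 0.107). The 5 in the table summed to 6.07 to 8.00 CPM in CBS KO and 7.48 to 7.80 CPM in WT. No gene in the table listed for a marker set was at 0 in all 6 libraries, and the part of other cells in the levels of the factors was not tested.

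The genes beside each factor on the chromosome, taken from the table, did not share one direction. Beside here means the nearest gene listed in the table. Distances were taken between the lower chromosome coordinates of 2 genes, whatever their strand. They ran from 6077 bases for TTC6 and FOXA1 to 1277667 bases for XRN2 and FOXA2. FOXA1, on the minus strand, starts at its upper coordinate of 37595249, and the lower coordinate of TTC6 is 37595629, so these 2 genes lie closer than that distance. TTPAL, the next gene after HNF4A, fell to 29.7 CPM in CBS KO, against 82.1 CPM in WT (log2 -1.47). TTC6, the gene at the start side of FOXA1, fell to 3.33 CPM in CBS KO, against 7.55 CPM in WT (log2 -1.17). PDGFRB beside CDX1 fell to 4.85 CPM in CBS KO, against 19.6 CPM in WT. In contrast URAD beside CDX2 rose 2.07-fold, with 5.58 CPM in CBS KO and 2.69 CPM in WT. The low-level FAM167A beside GATA4 was called higher, with 1.71 CPM in CBS KO and 0.384 CPM in WT. It passed the filter through CBS KO alone, so its call adds no support. MIB1, a ubiquitin ligase of Notch signalling beside GATA6, was called higher at 0.91 with TMM. Its value was 0.20 (adjusted p = 0.0717 by limma) with log2(FPKM + 1) and -0.02 with log2(TPM + 1).

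PDX1, a homeodomain factor of pancreas and duodenum on the other side of CDX2, was not called with TMM, with 0.5045 CPM in CBS KO and 0.858 CPM in WT (log2 -0.76, adjusted p = 0.0583 by edgeR). With library totals PDX1 was called lower, at -1.11. It had 6, 7 and 5 reads in CBS KO and 15, 14 and 18 reads in WT. It passed the filter through WT alone, so that call adds no support. NEIL2 beside GATA4 was not called, with 5.73 CPM in CBS KO and 6.85 CPM in WT, but was called lower with library totals, at -0.61, and without CBS KO replicate 2, at -0.35 (adjusted p = 0.0406 by edgeR). XRN2 beside FOXA2 was called lower by a small step, at -0.16, and lost the call with DESeq2 (adjusted p = 0.0582) and without WT replicate 2 (adjusted p = 0.0793 by edgeR). MIPOL1 beside FOXA1 was called higher, at 0.32, but was at -0.03 with library totals, and it lost the call without WT replicate 2 (0.27, adjusted p = 0.0649 by edgeR) or WT replicate 3 (0.27, adjusted p = 0.0576 by edgeR). Beside HNF4G, ZFHX4 fell to 1.37 CPM in CBS KO, against 3.09 CPM in WT, and CRISPLD1 was called higher, at 0.47 (adjusted p = 0.0495 by edgeR). That call was lost with library totals and when any library other than CBS KO replicate 3 was left out (0.39 to 0.51, adjusted p of 0.0716 to 0.163 by edgeR). The remaining neighbours SLC6A7, R3HDML, CTAGE1 and CD93 were too low to be tested.

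Genes with the pattern most like each factor were ranked by the root mean square difference between log2 CPM profiles over the 6 libraries, each centred on its own mean, among up to 10918 genes. The nearest to CDX2 was TTC30A, with a difference of 0.0252, followed by MOCS1 and USP11, and the nearest to HNF4A was MR1, with 0.0376, followed by F7 and SH3RF2. F7, coagulation factor VII of the liver, was also on the list of HNF4 targets and had 23.3 CPM in CBS KO and 56.4 CPM in WT. TNS3, IL17RA and DAGLA were nearest to FOXA1 (0.0437 for TNS3), and POLI, MICALL1 and PIP5K1C to GATA6 (0.0365 for POLI). For the factors that were not called the nearest were ARHGEF3, DSCC1 and PSMC6 for FOXA2 (0.0275 for ARHGEF3) and LIF, NOA1 and GLI4 for HNF4G (0.0644 for LIF). GATA4 had no gene as close, with CCDC71 at 0.125, followed by PYCR3 and SLC26A1. The genes compared had a mean of at least 5 CPM, whereas GATA4 had 3 to 47 reads in a library, so nothing is drawn from its larger distance. The likeness in each case describes 6 libraries of 2 groups.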

How the data were processed

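RNA-seq of 3 CBS KO and 3 WT Caco-2 samples was used, grouped by the genotype labels. Per the labels' protocols, oligo(dT)-selected mRNA was made into dUTP-marked paired-end libraries. Per the submitters' processing notes, the tools were StringTie 2.1.6, HISAT2 2.2.1, cutadapt 1.9, edgeR and DESeq2, with build GRCh38. How reads were assigned, and whether by strand, is not given in the sources used here. The authors deposited estimated counts, of which 7.12 to 7.43% per library are not whole and which were rounded here, FPKM, and TPM. FPKM and TPM are the authors' own scaling to length and library.

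Genes were filtered with filterByExpr, which kept 13028, and tested with edgeR 4.0.16 (TMM, quasi-likelihood) in R 4.3.3, with Benjamini-Hochberg adjustment at 0.05. limma 3.58.1 was used for log2(FPKM or TPM + 1), and DESeq2 1.42.0 as another count test. The edgeR fit was tested on simulated data in which few genes changed, as many up as down. That test does not check the scaling or the calls where most genes are called, as here. Genes named were the 8 factors, in each list up to 5 called genes with the largest change and a mean of at least 5 CPM in the higher group, the nearest gene on each side of a factor, and the 3 most alike genes per factor. VIL1, APOA2, TF, COL1A1, COL1A2, PTPRC, MUC5AC, MUC6, GATA2, GATA3, GATA5 and VWF were added as marker or family genes after their values were seen. So were FABP2, MUC2, SLC10A2, PSCA, KRT7, IL33 and CCN2, as genes of the lists. Some genes that this rule would name are not reported here. The factors and lists were chosen with earlier results of these data known. Promoter windows are RefSeq's, gene positions RefSeq's on GRCh38.p14. The lists of long noncoding neighbours and of mitochondrially encoded mRNAs were not analysed here, and protein sequences were not used here. Alternatives were other scalings, filters, tools, units and pseudocounts, a replicate block, and leaving out each library.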

Additional observations from a re-analysis of the deposited data

How the results depend on the processing

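With library totals, log2(FPKM + 1), log2(TPM + 1) and log2(FPKM + 0.1), 2966, 2945, 2003 and 2943 genes were called higher in CBS KO, against 4998 with TMM, and with log2(TPM + 1) 8594 were called lower, against 5062. The falls of CDX2, HNF4A, GATA6 and FOXA1 were called under each of the 15 alternatives. GATA4 was called lower wherever it was tested, and a minimum mean of 5 CPM removed it. Its repeated calls add no support, since it passed the filter on low counts through WT alone. HNF4G turned to -0.35 with library totals, -0.029 without a filter, -0.24 with log2(FPKM + 1), -0.45 with log2(TPM + 1) and -0.32 with log2(FPKM + 0.1), and ranged between -0.069 and 0.12 when a library was left out. FOXA2 was called lower with these 4 scalings. Other signs that turned were those with log2(TPM + 1) of FABP1 (-0.20), DPP4 (-0.0675), HOXA13 (-0.11), CRISPLD1 (-0.048), MIB1 (-0.018) and MIPOL1 (-0.14, and -0.029 with library totals), and that of LIF (-0.27 with library totals, -0.18 with log2(FPKM + 1), -0.40 with log2(TPM + 1) and -0.21 with log2(FPKM + 0.1)). Of 570 comparisons of list counts, 81 moved by more than 1.5 times. Same-numbered libraries correlated at 0.0405, 0.0174 and 0.022, and the others at -0.0466 to 0.0235. CBS KO 1 and CBS KO 3 correlated best with the WT library of the same number, and CBS KO 2 with WT 3 (0.0235). These values are all small and do not settle whether the numbers pair libraries. The replicate block gave 4986 genes higher and 5058 lower, and 5 of the factors lower, GATA4 among them, with no call of a factor changed. Among the other named genes it ended the calls of CRISPLD1 (adjusted p = 0.0609 by edgeR) and GATA3. GATA4 is limited by its depth, and the paralogue ratios by 3 libraries a group. The cause of these shifts was not tested.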
